A study of Mus musculus with 2 samples.

Results

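Serpinb6b, Akap6, Wwc1, Bbs9, Plxna4 and Scin are 6 genes, of 32544 in the count tables, that had been picked from these same counts as little-studied genes going with the osteoclast (OC) program. They were found by symbol in the 2 single-cell libraries of the study, of genotypes control and LysM-Cre;Arid1afl/fl, the latter named the mutant library below. In each library they were set beside the unique molecular identifiers (UMIs, each counting 1 captured mRNA molecule) of Ctsk, Mmp9 and Dcstamp, and compared between libraries and between cycling and other cells. Since the genes were chosen with such values known, their relation to the OC genes and their direction between the libraries are given as a description only. For 5 genes every class of control cells with OC gene UMIs had a higher level than the cells with 0, and the level was highest or near its highest in the cells with the most. Wwc1 went against that choice in the control library: its level was highest in control cells with 2 UMIs of the OC genes and lower again in the cells with the most.

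OCs arise from myeloid cells and are the cells that resorb bone. Macrophage colony-stimulating factor (M-CSF) keeps their precursors alive and dividing, and receptor activator of NF-κB ligand (RANKL) turns on the OC program, in which precursors leave the cell cycle, fuse and secrete acid and proteases onto bone. Ctsk encodes cathepsin K, which cleaves bone collagen, Mmp9 encodes a gelatinase, and Dcstamp a membrane protein needed for cell fusion. Of the 6 genes, Serpinb6b belongs to the clade B serpins, intracellular inhibitors of serine proteases. Akap6 encodes a scaffold that anchors protein kinase A and calcineurin at the nuclear envelope and is best known from muscle. Wwc1, also called KIBRA, is a scaffold upstream of the LATS kinases of the Hippo pathway. Bbs9 is a subunit of the BBSome, the coat complex that carries membrane proteins to and from cilia. Plxna4 is a plexin, a receptor through which semaphorins steer cell movement, often with a neuropilin as co-receptor. Scin encodes scinderin, or adseverin, a calcium-dependent protein of the gelsolin family that severs and caps actin filaments.

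Bone marrow-derived monocytes were induced in both cultures with M-CSF at 50 ng/ml and RANKL at 100 ng/ml and, according to the methods of the study, collected the day after RANKL was added. In the mutant, a recombinase expressed from the Lyz2 locus in myeloid cells excises a floxed stretch of Arid1a, which encodes a BAF subunit that remodels chromatin. The labels call the other genotype control and say no more of it, and neither the strain, the age nor the number of animals behind a library was given in the labels. After barcodes with fewer than 500 genes or over 10% mitochondrial UMIs had been dropped, 6269 control and 5663 mutant cells remained, with medians of 23978 and 21734 UMIs per cell, and 8 barcodes were found in both libraries. Levels are UMIs of a gene per 1000000 UMIs of the cells in question (CPM), summed over cells of 1 library. Each genotype had 1 library, so there is no replicate check and no test, and every interval in parentheses is a 95% interval that covers counting error only. Arid1a itself had 51.9 CPM in the control and 20.4 CPM in the mutant library, which was lower but not 0. Counts of 3′ ends include recombined transcripts, so they are a weak check of the deletion. Summed levels of markers of other cells also differed between the libraries: the 4 neutrophil genes had 264 CPM in the control and 1981 CPM in the mutant library, and the 4 class II genes 28.7 and 116 CPM. The 4 monocytic genes had 1256 and 2107 CPM, the 6 OC reference genes 263 and 112 CPM, and the 4 stromal genes 4.42 and 11.4 CPM, with none of these genes at 0 in either library.

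In the genome the 6 genes are scattered over 5 chromosomes and have long gene bodies. On GRCm39, Serpinb6b (ENSMUSG00000042842) lies at chr13:33073279-33163050 on the plus strand, Akap6 (ENSMUSG00000061603) at chr12:52746017-53202382 on the plus strand and Wwc1 (ENSMUSG00000018849) at chr11:35729216-35871639 on the minus strand. Bbs9 (ENSMUSG00000035919) lies at chr9:22386831-22800160 on the plus strand, Plxna4 (ENSMUSG00000029765) at chr6:32121203-32565193 on the minus strand and Scin (ENSMUSG00000002565) at chr12:40109755-40184227 on the minus strand. The median span of the 6 gene bodies was 278 kb, against 26.1 kb over 8647 genes with an annotated span among those with a mean of 5 CPM or more over the libraries, called tested genes from here on. Akap6 (456 kb), Plxna4 (444 kb) and Bbs9 (413 kb) were each longer than 99.3% or more of them, and the shortest, Scin at 74.5 kb, was longer than 82.2%. Genes lower in the mutant library by 2-fold or more had a median span of 29.1 kb. Scin overlaps no other annotated gene. Serpinb6b overlaps Serpinb1c on the opposite strand, which had 6.59 CPM in the control and 0.70 CPM in the mutant library, and Plxna4 overlaps the antisense gene Plxna4os1, with 3.67 and 1.99 CPM. Use of strand in the counting was not stated, so reads of these pairs cannot be told apart with certainty. Gm60792 overlaps Serpinb6b on the same strand, and 4, 5 and 1 annotated genes overlap Akap6, Bbs9 and Wwc1 on the opposite strand. None of these was among the counted genes, and their part in the levels was not tested. Near-identical copies touched Serpinb6b little: of 1213 stretches of 50 bases in the last 1000 bases of its transcripts, 24 (1.98%) were shared with Serpinb6c, which had 0 UMIs, and 0 with Serpinb6a.

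Of the 250 bases before the RefSeq start of each gene, the promoters of Serpinb6b and Scin are shown, the former because it alone held matches to the core of PU.1, the myeloid lineage factor, and the latter because Scin had the steepest relation to the OC genes. The table of promoters gave them for 5 genes on GRCm38.p6, and each was matched to a single place on GRCm39. The Serpinb6b stretch is chr13:33148994-33149183 on the plus strand and the Scin stretch chr12:40184228-40184477 read from the minus strand, with motif matches in capitals. The Serpinb6b stretch was cut to 190 bases, before the first annotated exon in the window, and that of Scin is whole. The RefSeq start of Serpinb6b, at 33149244, lies inside the gene body given by GENCODE, which has earlier starts. So do those of Akap6, Bbs9 and Wwc1. In their windows 101, 70 and 0 of the 250 bases come before the first annotated exon, so part or all of the searched sequence is transcribed.
Serpinb6b: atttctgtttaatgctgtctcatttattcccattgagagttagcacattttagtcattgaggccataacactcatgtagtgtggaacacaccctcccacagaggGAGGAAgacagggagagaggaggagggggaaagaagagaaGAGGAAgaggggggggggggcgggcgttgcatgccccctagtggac
Scin: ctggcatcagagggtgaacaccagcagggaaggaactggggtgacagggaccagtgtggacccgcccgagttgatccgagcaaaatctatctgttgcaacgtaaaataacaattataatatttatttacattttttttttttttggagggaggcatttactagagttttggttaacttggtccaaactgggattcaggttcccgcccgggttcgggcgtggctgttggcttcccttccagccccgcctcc
GAGGAA, the PU.1 core, occurred in Serpinb6b on the plus strand, starting 146 and 106 bases before the RefSeq start. TGGAAA, the core bound by NFAT factors, occurred once among the 5 promoters, in Akap6, starting 126 bases before its RefSeq start and inside the GENCODE gene body. TGANTCA, the AP-1 site, and CACGTG, the E-box read by the MITF family, occurred in none of the 5. With both strands searched, the shares of 32851 mouse promoters with a match were 23.3% for GAGGAA, 18.6% for TGGAAA, 6.75% for TGANTCA and 6.02% for CACGTG. A promoter of Plxna4 was not used here.

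To ask how the 6 genes differed between the genotypes, their levels were first taken over all cells of each library. Each of the 6 was lower in the mutant library. Serpinb6b had 68.4 CPM in the control library (67.1 to 69.6, from 11184 UMIs) and 21.3 CPM in the mutant library (20.5 to 22.1, from 2803 UMIs), a log2 ratio of -1.68 (-1.74 to -1.62). For Akap6 the control level was 14.5 CPM (13.9 to 15.1) and the mutant level 4.34 CPM (3.99 to 4.72), a log2 ratio of -1.74 (-1.87 to -1.61). Wwc1 had 28.1 CPM (27.3 to 28.9) and 7.77 CPM (7.30 to 8.27), a log2 ratio of -1.86 (-1.95 to -1.76). These 3 genes thus differed by 3.21-fold, 3.34-fold and 3.62-fold, and the interval of the Akap6 ratio overlapped those of the other two.

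The other 3 genes differed more. For Bbs9 the control level was 38.6 CPM (37.7 to 39.6) and the mutant level 7.52 CPM (7.06 to 8.01), a log2 ratio of -2.36 (-2.46 to -2.26). Scin had 10.1 CPM (9.61 to 10.6) and 1.39 CPM (1.198 to 1.61, from 183 UMIs), a log2 ratio of -2.86 (-3.09 to -2.64). Plxna4 differed most of the 6, with a control level of 19.8 CPM (19.2 to 20.5, from 3244 UMIs) and a mutant level of 1.63 CPM (1.42 to 1.86, from 214 UMIs). Its log2 ratio was -3.61 (-3.81 to -3.41), or 12.2-fold, and it stood in place 3 from the lowest of the 8650 genes whose mean over the libraries was 5 CPM or more. For comparison, Mmp9 stood in place 5 with a log2 ratio of -3.26, Dcstamp in place 15 with -2.36 and Ctsk in place 55 with -1.47.

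Of the 8650 genes, 1.62% were lower in the mutant library by 2-fold or more, and all 6 genes were among them. Their median log2 ratio was -2.11 and that of all 8650 genes 0.05. The mutant levels of Akap6, Plxna4 and Scin lay under 5 CPM, so these genes passed the minimum through the control library, and the count adds no support to the choice. Without the neutrophil-like and class II-high cells, of which the mutant library had 89 and 109 and the control library 19 and 14, the 6 log2 ratios lay between -3.60 and -1.70. In such sums fewer expressing cells and less RNA per cell cannot be told apart, so the cells were next counted and sorted one by one.

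**Figure D1:**
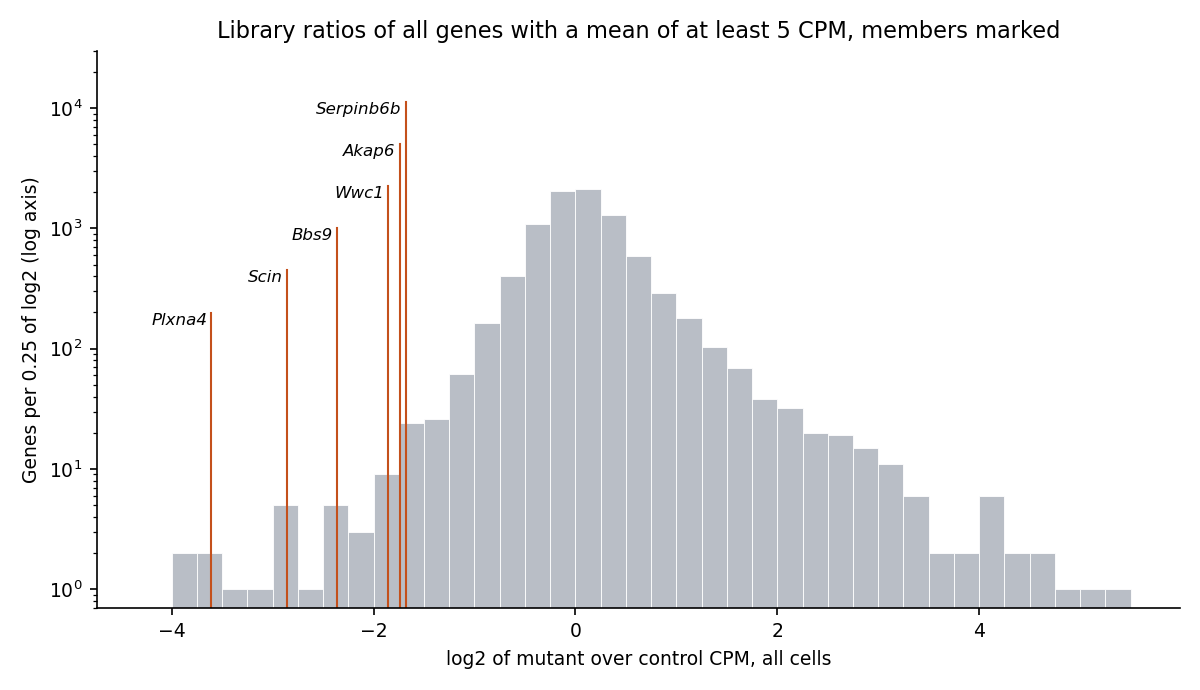
Distribution of the log2 ratio of mutant over control CPM over 8650 genes with a mean of 5 CPM or more, all cells of each library, with the number of genes per 0.25 of log2 on a log axis. The vertical lines mark the 6 genes, which lie in the left tail from -3.61 for Plxna4 to -1.68 for Serpinb6b; the height of a line has no meaning.

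At an equal depth of 5000 UMIs per cell, a UMI of each gene was found in fewer mutant than control cells. Serpinb6b had a UMI in 1201 of 6101 control cells, or 19.7% (18.7 to 20.7%), and in 352 of 5312 mutant cells, or 6.63% (5.97 to 7.33%). The shares were 15.9% and 3.39% for Bbs9, 10.4% and 2.65% for Wwc1, and 5.61% and 1.86% for Akap6. Plxna4 was seen in 7.90% (7.24 to 8.61%) and 0.471% (0.305 to 0.694%) of cells, and Scin in 3.61% (3.15 to 4.11%) and 0.414% (0.260 to 0.626%). On the full counts the control shares were 12.1% for Scin to 47.6% for Bbs9, and the mutant shares 1.41% for Scin to 17.6% for Serpinb6b. As a measure of free RNA, neutrophil-like cells were examined. Of 17 control neutrophil-like cells 1 held a Serpinb6b UMI, with an upper limit of 28.7%, and 0 held a UMI of the other 5 genes, which allows a share of up to 17.6% when 0 is taken as fewer than 3 cells. Of 75 mutant ones 2 held a Serpinb6b UMI and 1 a Wwc1 UMI, with upper limits of 9.30% and 7.21%, and 0 held a UMI of the other 4 genes, which allows up to 4% in the same way. The median depth of these cells was 8616 and 10828 UMIs, against 24266 and 22412 in all cells. With so few such cells, the share of each of the 6 genes in all cells lay under its limit in both libraries, and was not distinguishable from this background. Their summed levels had more counts behind them. In the control library Serpinb6b, Wwc1 and Bbs9 were above the upper limit in neutrophil-like cells, 29.4 CPM for Serpinb6b and 19.4 CPM for the others. The interval of Plxna4 held its limit, and Akap6 and Scin over all cells lay below theirs. In the mutant library Serpinb6b and Wwc1 were above their upper limits of 13.7 and 4.83 CPM. Akap6, Bbs9, Plxna4 and Scin over all mutant cells were not above theirs, which were 4.83, 8.88, 3.20 and 3.20 CPM, so mutant levels under these values are not read as expression.

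To place the genes along OC differentiation, cells were sorted by the UMIs they held over Ctsk, Mmp9 and Dcstamp at 5000 UMIs per cell. In the control library 4784 cells held 0 such UMIs, 722 held 1, 235 held 2, 209 held 3 to 5, 107 held 6 to 10 and 44 held over 10. The mutant library had 4951, 254, 57, 31, 12 and 7 such cells. Cells with 3 or more were thus 5.90% of control and 0.941% of mutant cells.

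Scin, the actin-severing gene, had the steepest relation. In the control library its level was 4.17 CPM in cells with 0 OC UMIs, 15.7 with 1, 28.4 with 2, 46.3 with 3 to 5, 61.2 with 6 to 10 and 98.2 CPM (82.4 to 116) with over 10. In the mutant library the same classes had 0.587, 4.07, 12.6, 16.8, 48.0 and 111 CPM (72.9 to 161, from 27 UMIs in 7 cells). Cells with 3 or more OC UMIs had 13.8-fold the level of cells with 0 in the control library (12.2 to 15.5) and 69.4-fold in the mutant library (48.4 to 99.3). The larger mutant ratio stood over a lower level in cells with 0, while the levels in the cells with over 10 had overlapping intervals. Both levels in cells with 0 lay under the limits set by neutrophil-like cells, 19.4 CPM in the control and 3.20 CPM in the mutant library. The 2 ratios thus divide by levels not told apart from free RNA.

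Akap6, the kinase scaffold, was next. Its control level was 7.22 CPM at 0 OC UMIs, 24.1 at 1, 41.5 at 2, 56.1 at 3 to 5, 73.2 at 6 to 10 and 84.5 CPM (69.9 to 101) at over 10. The mutant levels were 3.098, 9.40, 21.0, 42.0, 109 (78.6 to 146) and 77.9 CPM (46.9 to 122). With 6 to 10 OC UMIs the mutant level, from 12 cells, was the higher one, by a log2 ratio of 0.57 (0.06 to 1.04), while with 3 to 5 and with over 10 the interval of the ratio held 0. The ratio of cells with 3 or more over cells with 0 was 8.98-fold (8.12 to 9.92) in the control and 21.2-fold (16.8 to 26.6) in the mutant library. Here too the levels at 0 lay under the limits set by neutrophil-like cells, 19.4 and 4.83 CPM.

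Plxna4, the semaphorin receptor, reached a plateau. In the control library it had 13.1 CPM at 0 OC UMIs, 27.5 at 1, 51.9 at 2, 60.4 at 3 to 5, 71.4 at 6 to 10 and 68.6 CPM (55.5 to 83.9) at over 10. In the mutant library it had 0.958, 4.23, 16.8, 18.0, 25.2 and 69.7 CPM (40.6 to 112, from 17 UMIs). The mutant level lay below the control level, with no overlap of intervals, in each class up to 6 to 10 OC UMIs, and only in the last class, of 7 mutant cells, did the intervals overlap. The ratio of cells with 3 or more over cells with 0 was 4.94-fold (4.51 to 5.40) and 29.7-fold (20.4 to 42.7). Its levels at 0 were likewise under the limits set by neutrophil-like cells, 19.4 and 3.20 CPM.

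Serpinb6b and Bbs9 were already present in control cells with 0 OC UMIs and were higher in the classes above. Serpinb6b, the protease inhibitor, had 55.9 CPM at 0, 86.4 at 1, 135 at 2, 129 at 3 to 5, 138 at 6 to 10 and 201 CPM (179 to 226) at over 10 in the control library. Its mutant levels were 19.4, 31.3, 54.7, 94.8, 116 and 119 CPM (79.6 to 171). Bbs9, the BBSome subunit, had 33.2, 47.7, 59.3, 67.8, 74.1 and 93.1 CPM (77.8 to 111) in the control classes and 6.91, 9.55, 24.6, 29.98, 27.8 and 53.3 CPM (28.4 to 91.1) in those of the mutant. The ratio of cells with 3 or more over cells with 0 was 2.52-fold in the control and 5.39-fold in the mutant library for Serpinb6b, and 2.196-fold and 4.81-fold for Bbs9. The mutant Bbs9 level at 0 lay under the limit set by neutrophil-like cells, 8.88 CPM.

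Wwc1, the Hippo scaffold, took another course. Its control level was 25.4 CPM at 0 OC UMIs, 38.3 at 1, 42.4 (37.5 to 47.7) at 2, 38.1 at 3 to 5, 23.7 (18.7 to 29.6) at 6 to 10 and 24.5 CPM (17.0 to 34.3) at over 10. The intervals of the last 2 classes held the level of the cells with 0 and did not reach that of the cells with 2. The mutant levels were 6.78, 18.3, 31.9 (23.9 to 41.7), 20.4, 25.2 and 12.3 CPM (2.54 to 35.9), the last from 3 UMIs. In the control library cells with 3 or more had 1.26-fold the level of cells with 0 (1.13 to 1.41), and cells with 6 or more had a log2 ratio of -0.09. Of the 6 genes, Wwc1 had the smallest share of its UMIs in cells with 3 or more OC UMIs, 7.58% in control and 2.94% in mutant cells, against 37.8% and 33.7% for Scin.

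**Figure D2:**
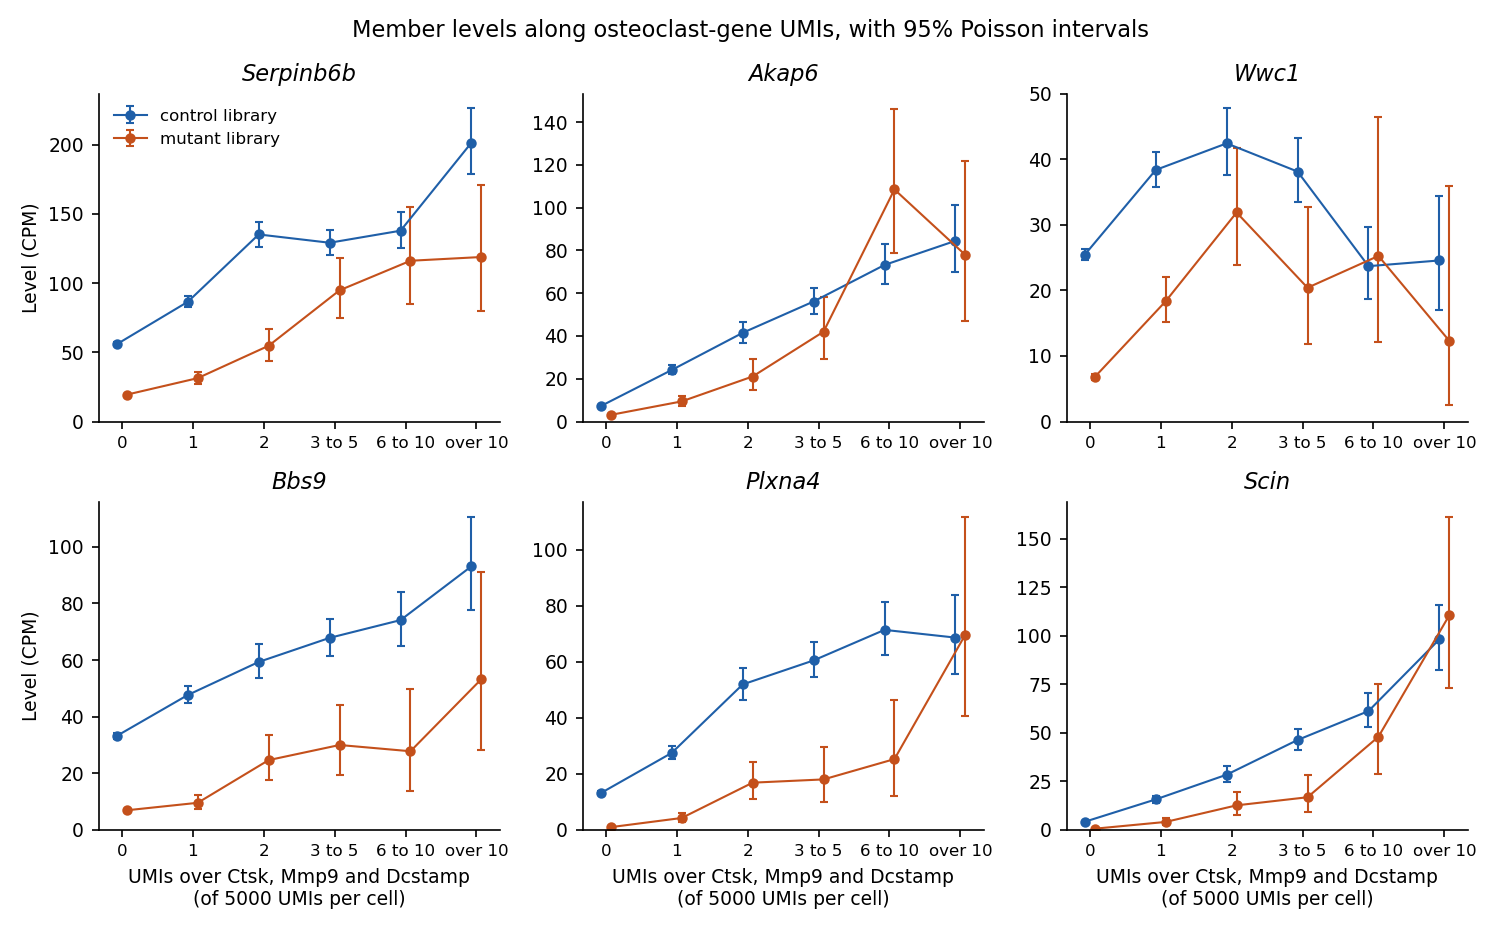
Level in CPM of each gene in cells with 0, 1, 2, 3 to 5, 6 to 10 and over 10 UMIs of Ctsk, Mmp9 and Dcstamp (of 5000 UMIs per cell), in the control library (blue) and the mutant library (orange), with 95% Poisson intervals that cover counting error only. Control Scin goes from 4.17 to 98.2 CPM, Plxna4 levels off, with 71.4 and 68.6 CPM in the last 2 classes, and Wwc1 peaks at 42.4 CPM in cells with 2 such UMIs; the last mutant class holds 7 cells.

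Read against all tested genes, 1.65% were higher by 2-fold or more in control cells with 3 or more OC UMIs than in those with 0, and 5 of the 6 genes were, all but Wwc1. For the mutant library the share was 2.45%, and all 6 genes were. Nothing is read from these counts, as the genes were picked for this relation. Acp5, Atp6v0d2 and Ocstamp, OC genes not used to sort the cells, were higher by 23.7-fold, 25.1-fold and 13.8-fold in the control library, so Scin was there on a par with Ocstamp and the other 5 were below these. In the mutant library the 3 OC genes were higher by 12.5-fold, 16.2-fold and 18.4-fold. Scin, Plxna4 and Akap6, at 69.4-fold, 29.7-fold and 21.2-fold, were above these, over levels at 0 not told apart from free RNA. Serpinb6b, Bbs9 and Wwc1 were below. With higher OC UMIs went a higher depth, with a median of 23894.5 UMIs in control cells with 0 and 30893.5 in those with over 10, and its part in the levels was not tested.

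Over single cells of the control library the Pearson correlation of each gene with the summed OC UMIs, on log(1 + UMI) at 5000 UMIs, was 0.27 for Scin, 0.22 for Akap6, 0.21 for Plxna4, 0.14 for Serpinb6b, 0.13 for Bbs9 and 0.04 for Wwc1 (n = 6101 cells of 1 library). The mutant values were 0.17, 0.21, 0.17, 0.10, 0.05 and 0.04 in the same order (n = 5312). The control values were placed among 6896 genes with a UMI in at least 5% of control cells, the sorting genes left out. Akap6 took place 12, Plxna4 15, Serpinb6b 75, Bbs9 103 and Wwc1 1025. Scin, with a UMI in 3.61% of control cells, was not itself among the 6896, and its value would take place 9. The filter also leaves out other sparse genes, such as Ocstamp with 2.05%. All 6 correlations are weak, and most cells held no UMI of the gene at this depth. They describe cells of 1 library, which share its preparation. Among the 6 genes themselves, over their 15 pairs, the correlation lay between 0.007 (Wwc1 with Scin) and 0.16 (Plxna4 with Scin) in the control library and between 0.017 and 0.15 in the mutant library. Within the 360 control cells with 3 or more OC UMIs it lay between -0.07 and 0.16.

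The genes whose counts per cell were most like theirs were largely the same few. Jdp2, which encodes a basic leucine zipper protein of the AP-1 family, was among the 3 most alike genes of 5 of them, with 0.26 for Serpinb6b, 0.27 for Akap6, 0.25 for Plxna4, 0.25 for Scin and 0.21 for Bbs9 in the control library, and 0.14, 0.20, 0.15, 0.15 and 0.11 in the mutant library. Nrp2, a neuropilin that serves semaphorins as co-receptor, was the most alike gene of Plxna4 (0.26 in control and 0.11 in mutant cells) and of Bbs9 (0.21 and 0.07), and was among the first 3 of Serpinb6b, Akap6 and Wwc1. Acp5, the tartrate-resistant acid phosphatase, was the most alike of Scin (0.31 and 0.08), followed by Jdp2 and the proton pump subunit Atp6v0d2 (0.22 and 0.07), and was the third for Akap6 and Plxna4. Wwc1 went most with Sec11c, a signal peptidase subunit (0.17 and 0.12), and S100a10, a partner of annexin A2 (0.17 and 0.14). Sec11c was also the third for Serpinb6b (0.23 and 0.12), and Npm1, which encodes a nucleolar chaperone, the third for Bbs9 (0.19 and 0.05). The ranking was over 6898 genes and 6101 control cells. Jdp2 had 152 CPM in the control and 60.3 CPM in the mutant library, and Nrp2 717 and 400 CPM.

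To ask whether the library difference was that of the OC-gene cells alone, the libraries were compared within classes of OC UMIs. In cells with 0 OC UMIs each of the 6 genes was lower by 2-fold or more in the mutant library, against 1.47% of all tested genes. These were 78.4% of control and 93.2% of mutant cells, and the genes were chosen with their direction between the libraries known. The count therefore adds no support to the choice. Plxna4 had 13.1 CPM in control cells with 0 OC UMIs and 0.958 CPM in such mutant cells, a log2 ratio of -3.78 (-4.06 to -3.50). Scin had 4.17 and 0.587 CPM (-2.83, from -3.21 to -2.47), Bbs9 33.2 and 6.91 CPM (-2.27) and Wwc1 25.4 and 6.78 CPM (-1.91). Serpinb6b had 55.9 and 19.4 CPM (-1.53) and Akap6 7.22 and 3.098 CPM (-1.22, from -1.40 to -1.05). In this class Akap6, Plxna4 and Scin in both libraries, and Bbs9 in the mutant library, lay under the upper limits set by neutrophil-like cells, so these ratios rest on levels not told apart from free RNA, whose part in them was not tested.

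These cells were not alike in OC transcripts beyond the 5000 UMIs used to sort them. On all their UMIs Mmp9 had 13.1 CPM in the control and 0.901 CPM in the mutant cells of this class, Dcstamp 3.67 and 0.801 CPM, and Ctsk 10.1 and 7.34 CPM. Acp5, which was not used to sort the cells, went the other way, with 34.7 CPM in the control and 56.9 CPM in the mutant cells. When only the 3503 control and 4656 mutant cells with no UMI of the OC genes in their full count were kept, Akap6 had 4.41 and 2.78 CPM, a log2 ratio of -0.67 (-0.90 to -0.44), no longer 2-fold. The other 5 stayed lower by 2-fold or more: Serpinb6b at 46.2 and 17.5 CPM, Wwc1 at 21.7 and 5.97, Bbs9 at 28.7 and 6.29, Plxna4 at 8.60 and 0.716 and Scin at 2.18 and 0.373 CPM. This alternative was added after the data were seen.

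In the 360 control and 50 mutant cells with 3 or more OC UMIs, the library differences were smaller. Akap6 had 64.8 CPM in the control and 65.8 CPM in the mutant cells, a log2 ratio of 0.02 (-0.30 to 0.33). Its direction depended on the depth at which cells were sorted, with 0.50 (0.02 to 0.95) at 2000 UMIs and -0.43 (-0.69 to -0.17) at 10000 UMIs. Serpinb6b had 141 and 105 CPM (-0.43, from -0.68 to -0.19), Scin 57.4 and 40.7 CPM (-0.50, from -0.90 to -0.11) and Wwc1 32.1 and 20.4 CPM (-0.66, from -1.25 to -0.12). Bbs9 had 72.9 and 33.2 CPM, a log2 ratio of -1.13 (-1.58 to -0.72), and Plxna4 64.8 and 28.5 CPM, a log2 ratio of -1.18 (-1.67 to -0.73). These 2 genes were lower by 2-fold or more, against 1.93% of all tested genes. Inside this class too the mutant cells had fewer transcripts of Mmp9, with 481 CPM in the control and 309 CPM in the mutant cells, but more of Ctsk, with 560 and 657 CPM. Sorting at 2000 UMIs per cell left 20 mutant cells in the class, and there Scin was higher in the mutant library, with a log2 ratio of 0.86, and Plxna4 had 0.11. Serpinb6b was then lower by more than 2-fold, with -1.06 (-1.59 to -0.57), so that the 2 genes past 2-fold were Serpinb6b and Bbs9. At 10000 UMIs Serpinb6b had -0.81, and Bbs9 and Plxna4 were again the 2 past 2-fold.

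If the mutant library had the control shares of the 3 classes, its levels within classes kept, the difference of Akap6 would go from a log2 ratio of -1.74 to -0.74 (-0.91 to -0.56) and that of Scin from -2.89 to -1.30 (-1.57 to -1.02). Plxna4 would go from -3.61 to -2.41 (-2.66 to -2.15), Wwc1 from -1.85 to -1.49, Bbs9 from -2.36 to -2.01 and Serpinb6b from -1.68 to -1.30. Bbs9, Wwc1 and Serpinb6b thus moved least by this weighting, and a part of the difference remained for each of the 6. The weighting did not make the libraries alike in the sorting genes themselves. Mmp9 would still have a log2 ratio of -1.21 (-1.32 to -1.09) and Dcstamp -0.80 (-1.005 to -0.59), while Ctsk would have 0.21 (0.14 to 0.28). What remained for the 6 genes is therefore not a difference at equal levels of the OC genes.

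**Figure D3:**
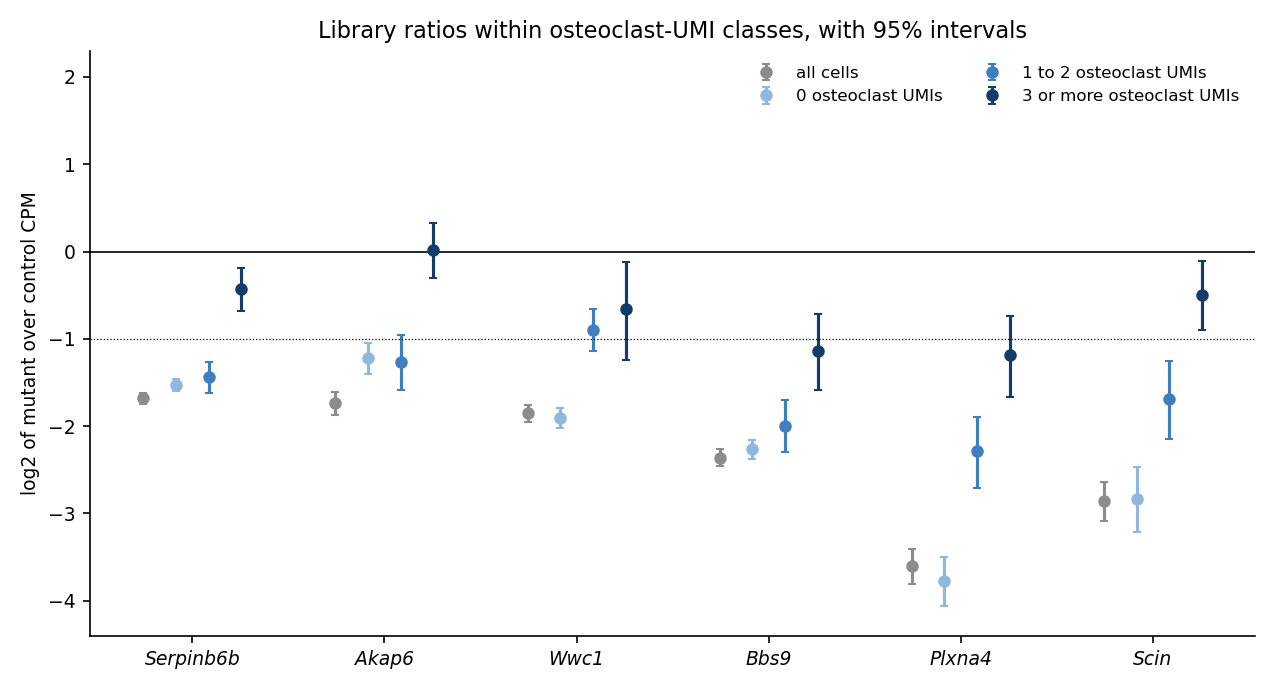
Log2 ratio of mutant over control CPM of each gene in all cells and in cells with 0, 1 to 2 and 3 or more UMIs of Ctsk, Mmp9 and Dcstamp, with 95% intervals for counting error; the dotted line marks a 2-fold lower level. All ratios are below 0 except that of Akap6 in cells with 3 or more, which is 0.02, and Plxna4 goes from -3.78 in cells with 0 to -1.18 in cells with 3 or more.

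To relate the genes to proliferation, cells with 3 or more UMIs, of 5000, in the sum of Aurka, Cdk1, Mki67 and Top2a were called cycling. They were 2392 control cells (39.2%) and 1783 mutant cells (33.6%). Mki67 had 178 CPM in the control and 104 CPM in the mutant library, and Aurka 41.1 and 35.9 CPM. Top2a had 261 and 277 CPM, and Cdk1 109 and 118 CPM. The part of these differences in the 2 shares was not tested. Over all cells of a library, none of the 6 genes differed by 2-fold or more between cycling and other cells with this choice of cycling cells. Within classes of OC UMIs mutant Serpinb6b did, as given below. With cells sorted at 2000 UMIs mutant Plxna4 did, with a log2 ratio of -1.58 (-2.56 to -0.75). Of all tested genes 2.07% in control and 3.06% in mutant cells were higher in cycling cells by that much, and 0.104% and 0.173% were lower. Akap6 had the highest ratio of the 6 in the control library, with 18.4 CPM against 11.5 CPM in the other cells, a log2 ratio of 0.67 (0.56 to 0.79). The ratio was 0.75, 0.71 and 0.40 in control cells with 0, with 1 to 2 and with 3 or more OC UMIs. Mutant Akap6 had 4.77 and 4.10 CPM, a log2 ratio of 0.22 (-0.03 to 0.47).

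Serpinb6b differed little between cycling and other control cells, with 66.8 and 69.6 CPM, a log2 ratio of -0.06 (-0.11 to -0.005). In the mutant library it had 15.7 CPM in cycling and 24.7 CPM in other cells, a log2 ratio of -0.65 (-0.78 to -0.53). By OC class the mutant ratio was -0.56 (-0.70 to -0.43) with 0 OC UMIs and -1.34 (-1.80 to -0.90) with 1 to 2. With 3 or more it was -1.19 (-1.76 to -0.66), from 20 cycling and 30 other cells. Over all cells the mutant ratio was lower than the control ratio by a difference of -0.59 (-0.73 to -0.46). The difference was -0.58 (-0.73 to -0.43) in cells with 0 OC UMIs, -1.21 (-1.66 to -0.76) with 1 to 2 and -0.76 (-1.31 to -0.22) with 3 or more. This difference depended on how cycling cells were chosen. With cells sorted at 2000 UMIs the ratios were nearly equal, with a control value of -0.22 (-0.29 to -0.14) and a mutant value of -0.22 (-0.39 to -0.07), while at 10000 UMIs they were -0.01 and -0.53. For G2/M-high over all other cells the control ratio was -0.38 (-0.45 to -0.32) and the mutant ratio -0.52 (-0.65 to -0.39), and the intervals overlapped. Without neutrophil-like and class II-high cells the mutant ratio was -0.63, and with Mki67 left out of the sum it was -0.72. Cells were also split by phase with 2 sums of phase genes, each cut at its top 25% over both libraries. G2/M-high cells passed the cut of the G2/M sum, and S-high cells that of the S sum but not the first. S-high cells were thus 20.65% of control and 23.83% of mutant cells. Control Serpinb6b had 83.5 CPM in S-high, 56.2 CPM in G2/M-high and 69.1 CPM in the other cells. The mutant levels were 21.3, 16.2 and 24.2 CPM, so that S-high cells were above the other cells in the control library and below them in the mutant library. G2/M-high cells had the lowest level in both.

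For the other 4 genes the ratios lay between -0.15 and 0.40. Plxna4 had 22.4 CPM in cycling and 17.9 CPM in other control cells, a log2 ratio of 0.32 (0.22 to 0.42), and 1.55 and 1.68 CPM in mutant cells, -0.12 (-0.54 to 0.30). In control cells with 3 or more OC UMIs its ratio was -0.07 (-0.29 to 0.15). Scin had 10.9 and 9.47 CPM in the control library, 0.20 (0.06 to 0.34), and 1.61 and 1.22 CPM in the mutant library, 0.40 (-0.05 to 0.84). The mutant Scin ratio turned to -0.89 (-1.73 to -0.15) with cells sorted at 2000 UMIs. Wwc1 was slightly lower in cycling control cells, with 26.5 and 29.4 CPM, -0.15 (-0.23 to -0.06), and had 7.43 and 8.05 CPM in the mutant library, -0.12 (-0.31 to 0.07). For G2/M-high over all other cells Wwc1 was higher instead, with a control ratio of 0.15 (0.06 to 0.24) and a mutant one of 0.42 (0.23 to 0.61). Bbs9 had 38.6 and 38.7 CPM in the control and 7.83 and 7.41 CPM in the mutant library, and both intervals held 0. The mutant levels of Akap6, Bbs9, Plxna4 and Scin, in cycling and in other cells, lay under the limits set by neutrophil-like cells. In the control library those of Akap6 and Scin did so too, as did Plxna4 in the other cells. Such ratios rest on levels not told apart from free RNA, whose part in them was not tested.

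**Figure D4:**
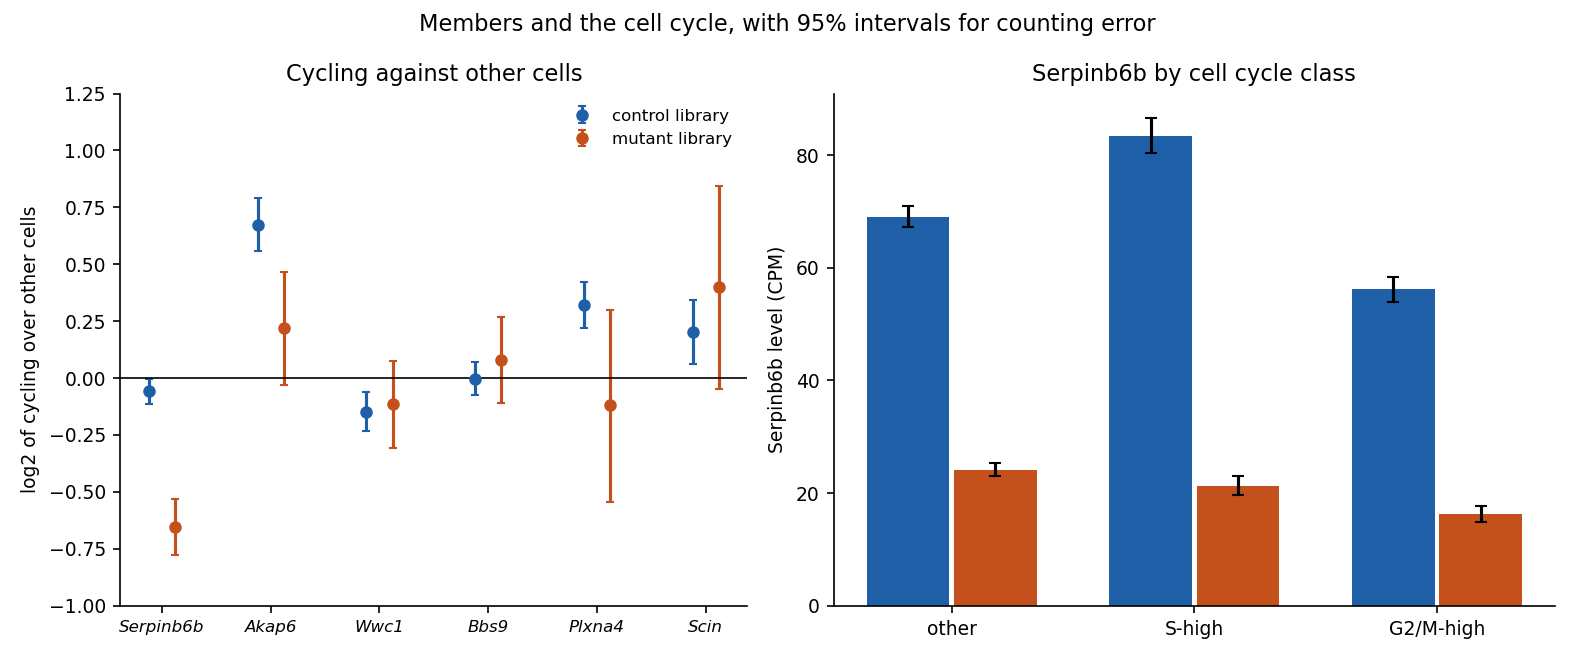
Left, log2 ratio of the level in cycling over other cells for each gene in the control (blue) and mutant (orange) library. Right, the Serpinb6b level in CPM in S-high, G2/M-high and other cells, with bars from 0; all intervals are 95% intervals for counting error. Serpinb6b is at -0.06 in control and -0.65 in mutant cells, and Akap6 at 0.67 and 0.22.

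The relatives of the 6 genes were then examined, from lists of their families and pathways, to see whether a family went with its gene. Most relatives did not differ by 2-fold. Of 26 clade B serpins 5 were tested and 1 was lower in the mutant library by 2-fold or more: Serpinb9b, with 9.32 CPM in the control and 1.23 CPM in the mutant library. Serpinb6a, the paralog of Serpinb6b, had 461 and 379 CPM, a log2 ratio of -0.28. Its control level in cells with 3 or more OC UMIs over cells with 0 was -0.88 on the log2 scale, against 1.34 for Serpinb6b. By that control ratio 1 of the 5 tested serpins was higher by 2-fold or more and 2 were lower. The higher one was Serpinb1a, with 2.39 in control but -3.015 in mutant cells. Of 16 A-kinase anchoring proteins 7 were tested, 0 were lower and 1 was higher, Akap13, with 51.6 and 112 CPM. Of 16 other Hippo genes 10 were tested, and 0 were lower or higher by 2-fold. Of 12 genes of the BBSome or of factors that act with it 5 were tested, and 0 were past 2-fold. These were the subunits Bbs7 and Bbip1, and Arl6, Lztfl1 and Mkks, which are not subunits. Wwc2, the relative of Wwc1, had 13.1 and 13.8 CPM.

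Of 10 plexins and neuropilins 7 were tested. Plxnd1 was lower, with 73.9 and 19.4 CPM, a log2 ratio of -1.93 (-1.99 to -1.86), and Plxnc1 was higher, with 6.94 and 16.6 CPM, a log2 ratio of 1.26 (1.16 to 1.37). The other A-type plexins tested were higher in the mutant library: Plxna1 had 41.4 and 72.7 CPM and Plxna2 13.0 and 18.4 CPM. Of 7 gelsolin family genes 5 were tested and 0 were past 2-fold, among them Capg with 974 and 1141 CPM and Gsn, gelsolin itself, with 187 and 211 CPM. In control cells with 3 or more OC UMIs Gsn and Capg had log2 ratios of -0.28 and -0.17 over cells with 0, against 3.78 for Scin. Over the 39 tested genes of the 6 lists, 2 were lower in the mutant library by 2-fold or more and 2 were higher, against 1.62% and 5.90% of all tested genes.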

How the data were processed

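mRNA was measured in single cells of 2 libraries of bone marrow-derived monocytes, with genotypes control and LysM-Cre;Arid1afl/fl, grouped by the genotype in the labels. The authors deposited unnormalized UMI counts for every gene in every barcode, from Cell Ranger 6.1.0 according to the headers; GRCm39 is named in the submitters' processing notes. Whether introns or strand were used in counting, and the genome annotation, were not given in the sources used here. UMI counting merges PCR duplicates, and reads come from the 3′ ends of transcripts.

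Totals were 164004706 UMIs over 6455 control barcodes and 131800059 UMIs over 5865 mutant barcodes; 186 and 202 barcodes failed the minimum of 500 genes or the maximum of 10% mitochondrial UMIs. For sorting into classes and for shares, cells were thinned without replacement to 5000 UMIs, which left out 168 control and 351 mutant cells; levels in classes use all UMIs of the cells. Doublets were kept, and leaving out 333 control and 275 mutant barcodes with the highest simulated-doublet scores (0.8% per 1000 barcodes) was an alternative. Neutrophil-like cells had at least 1% of UMIs in S100a8, S100a9, Camp and Ngp, and class II-high cells at least 0.1% and 3 UMIs in Cd74, H2-Aa, H2-Ab1 and H2-Eb1. A like gate on stromal genes found 3 cells in each library and was not used. Intervals of levels are exact Poisson, of ratios exact conditional, and of shares exact binomial (Clopper-Pearson), all at 95%. Where 0 cells held a UMI, the limit given is 3 cells of the total instead. With 1 library per genotype no test was made and no p-value is given. The thinning and the ratios were tested on simulated data before use. Coordinates are from GENCODE release M39, which matched 31977 of 32544 gene identifiers, and promoters from RefSeq. Python 3.11.15, numpy, scipy and scikit-learn were used.

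The 6 genes, the family lists and the marker lists were chosen with earlier results of these data known. Besides the 6 genes, those named are the 3 most correlated with each over control cells, among genes with a UMI in at least 5% of them, the OC reference genes, and family genes by their counts and UMIs.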

Additional observations from a re-analysis of the deposited data

Results flagged for a closer look

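In 2 of the 6 genes the level in cycling over other cells pointed one way in the control and the other way in the mutant library. For Bbs9 the log2 ratio was -0.0025 in the control (-0.075 to 0.070) and 0.080 in the mutant library (-0.11 to 0.27). Both intervals held 0, as did that of their difference, 0.082 (-0.12 to 0.28), so no difference was detectable. For Plxna4 the log2 ratio was 0.32 in the control (0.22 to 0.42) and -0.12 in the mutant library (-0.54 to 0.30), with a difference of -0.44 (-0.86 to -0.019). In cells with 0 OC UMIs that difference was -0.86 (-1.44 to -0.27), and in cells with 3 or more it was 0.02 (-0.88 to 0.93). With cells sorted at 2000 UMIs the ratios were 0.19 and -1.58, and at 10000 UMIs 0.32 and -0.37. With 1 library per genotype the differences were not tested. The mutant Bbs9 and Plxna4 levels over all cells were not above the limits set by neutrophil-like cells, and the part of this in the ratios was not tested.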

How the results depend on the processing

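No paired analysis was possible because there is 1 library per genotype and the result comes from no test. Of the summary values under alternatives 55 moved by less than their counting interval and 23 by more. Over all cells the median log2 ratio of the 6 genes was -2.11, and it was -2.22 with totals without mitochondrial and ribosomal protein genes and -2.21 with every cell weighted alike; with a minimum mean of 20 CPM 2 of the genes were tested, Serpinb6b and Bbs9, and both were lower by 2-fold. The median log2 ratio of cells with 3 or more OC UMIs over cells with 0 was 1.82 in control and 3.42 in mutant cells. It was 1.67 in the control at 2000 UMIs per cell, 1.98 and 3.09 at 10000 UMIs, 1.958 and 3.78 with 6 or more OC UMIs, where control Wwc1 turned to -0.088, and 2.07 and 2.85 with Acp5 added. For cycling over other cells the control median was 0.099. With G2/M-high cells alone taken as cycling it was -0.042, and control Wwc1 turned to 0.15, Plxna4 to -0.072 and Scin to -0.013. The median correlation with OC UMIs, 0.18 in control and 0.13 in mutant cells, was 0.094 and 0.084 at 2000 UMIs, 0.26 in the control at 10000, 0.34 and 0.20 unthinned, 0.20 and 0.092 with Acp5 added, and 0.076 in the mutant library by Spearman's rank. Between libraries in cells with 3 or more OC UMIs, sorting at 2000 UMIs, with 149 control and 20 mutant cells, turned Plxna4 to 0.11 and Scin to 0.86. The median share of cells with a UMI, 9.14% and 2.26%, was 4.32% and 0.908% at 2000 UMIs and 16.2% and 4.21% at 10000 UMIs. The cause of these changes was not tested, except that shares and correlations at another depth rest on other counts per cell. Of the values of single genes 226 stayed within their interval, 128 moved beyond it and 6 with an interval off 0 changed sign, the 6 given here. Where the interval had held 0, others also changed sign to an interval off 0: cycling over other cells in mutant Scin (-0.89) at 2000 UMIs, in mutant Wwc1 (0.42) with G2/M-high cells and in control Bbs9 (0.079) at 10000 UMIs, and the ratio of the libraries for Akap6 (-0.43) at 10000 UMIs. Scaling by TMM or by median of ratios moved the median of all genes by -0.063 and -0.090 on the log2 scale and no direction of the 6 genes. Totals without mitochondrial and ribosomal protein genes moved that median by -0.11. Leaving out doublets, and the neutrophil-like and class II-high cells, moved no summary value beyond its interval. The phase split, the finer OC classes, the class with no OC UMI in the full counts and the omission of neutrophil-like and class II-high cells were chosen after seeing the data. The mutant classes with 6 to 10 and over 10 OC UMIs held 12 and 7 cells, which limits the precision of their levels.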

Other observations

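Of the cells with an OC gene UMI, few held several of the 6 genes at 5000 UMIs. The mean number of the 6 genes with a UMI per control cell was 0.505 in cells with 0 OC UMIs, 0.863 with 1, 1.12 with 2, 1.44 with 3 to 5, 1.505 with 6 to 10 and 1.93 with over 10. In mutant cells it was 0.138, 0.232, 0.632, 0.516, 1.08 and 1.71. None of the 6 was found in 63.4% of control and 87.5% of mutant cells with 0 OC UMIs, and in 20.8% and 46.0% of those with 3 or more.

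Cells of another kind also held some of these transcripts. Of 94 mutant class II-high cells at 5000 UMIs, 15 had a Serpinb6b UMI, or 16.0% (9.22 to 24.95%), against 6.63% of all mutant cells, at a median depth of 14668 against 22412 UMIs. Akap6 and Scin were each found in 0 of them, which allows a share of up to 3.19% when 0 is taken as fewer than 3 cells, and Plxna4 in 1. In the 13 control class II-high cells Serpinb6b was found in 2 and Scin in 2.

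Among the serpins, Serpinb9b had a low level in the mutant library like Serpinb6b but not its relation to the OC genes: its log2 ratio of control cells with 3 or more OC UMIs over those with 0 was -2.09. Among the plexins, Plxnd1 was lower in the mutant library like Plxna4, with log2 ratios of 0.96 in control and 1.60 in mutant cells for cells with 3 or more OC UMIs over those with 0, while Plxnc1 and Plxna1 had -1.95 and -1.18 in the control library. By this control ratio 1 of the 7 tested plexins and neuropilins was higher by 2-fold or more and 3 were lower. The higher one was Nrp2, with 1.36 in control and 1.41 in mutant cells.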
